A study of Mus musculus with 18 samples.

Results

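Cells that carried transcripts of Twist1, Prrx1 and Alx1 together were taken from 18 single-cell RNA-seq libraries of mouse embryos at E8.5. A cell barcode was a member if it held at least 3000 UMIs (unique molecular identifiers, the counted transcripts) on mouse genes, at least 1 UMI of each of these 3 genes, and no UMI of the neural crest genes Sox10, Foxd3 and Dlx2. This rule gave 4698 member cells of 105556 barcodes with at least 3000 UMIs, or 4.45%, out of 162336 barcodes in the files. The 6 rule genes chose the cells, so their levels are given as a description and were not tested.

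The embryos were on the 129S4/SvJae background and were labelled as 7 wild-type (WT), 3 Dnmt1 null (Dnmt1-/-, Dnmt1 KO), 4 Dnmt3a null (Dnmt3a-/-, Dnmt3a KO) and 4 Dnmt3b null (Dnmt3b-/-, Dnmt3b KO) embryos. Mice heterozygous for a germline mutation in 1 of the 3 genes had been intercrossed, and the mutant and wild-type embryos were told apart by PCR on the ecto-placental cone. Every cell of a mutant embryo, supporting tissues included, therefore carried the mutation. Each library was made from 1 whole dissociated embryo with the 10x Genomics 3' v3 chemistry, so embryos served as the replicates. WT libraries gave 1595 members, Dnmt1 KO 332, Dnmt3a KO 1400 and Dnmt3b KO 1371.

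Head mesenchyme fills the space between the neural tube, the surface ectoderm and the pharynx, and later contributes to skull, muscle, vessels and connective tissue. It comes from cranial paraxial mesoderm and from neural crest, and cells of the cranial mesoderm do not switch on the posterior Hox genes. Twist1 is a basic helix-loop-helix factor that keeps mesenchyme migratory and is needed for closure of the cranial neural tube. Prrx1 and Alx1 are paired-type homeobox factors, of which Alx1 is known for its role in the frontonasal skeleton. DNA methylation is copied onto new DNA strands by Dnmt1 and placed on unmethylated DNA by Dnmt3a and Dnmt3b. It is known to hold germline genes silent in somatic cells and to mark the parental copies of imprinted genes.

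Several libraries stood apart before any comparison was made. Dnmt3b KO 1 and Dnmt3b KO 2 shared 12249 barcodes, 86.5% of the first and 79.3% of the second, against at most 133 between any other pair, and 98 member barcodes occurred in both. Whether they came from separate embryos is therefore in doubt. Their UMIs were summed and counted as 1 library of 564 members, in which the 98 barcodes entered from both, which leaves 3 Dnmt3b KO libraries, and 4600 members remain when shared barcodes are counted once. Dnmt3a transcripts, at 32.4 to 40.01 CPM (counts per 1000000 UMIs of the member cells) in the WT libraries, reached only 18.05 CPM in the library labelled Dnmt3b KO 11 and 10.5 CPM in that labelled Dnmt3b KO 12. Transcripts of 4 Y-linked genes summed to 95.5 to 123 CPM in all Dnmt1 KO and Dnmt3a KO libraries, in Dnmt3b KO 1 and 2 and in Dnmt3b KO 11 and to 96.97 CPM in WT 2, against at most 0.443 CPM in the other WT libraries and 0 in Dnmt3b KO 12, so sex was nearly confounded with genotype. A reference that joined the human and mouse genomes had been used for WT 1, for Dnmt3b KO 11 and for replicates 1 and 13 of Dnmt3a KO. Counts from fits with a Y-linked covariate are given below for the lists whose calls they moved most. Without Dnmt3b KO 11 and 12 only 1 Dnmt3b KO library was left, so counts from that fit are given for Dnmt3a KO alone. Within a genotype, Y-linked levels differed mainly through WT 2 and Dnmt3b KO 12, so the covariate rests mostly on these libraries. Dnmt3b KO 12 also held the most germline transcripts, so Y-linked level and that library cannot be told apart in those fits. With a reference covariate, no list count moved by more than 2 genes.

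The members were deeply sequenced cells. Their median UMI count lay between 23040.5 and 72213 across libraries, whereas the median over all barcodes with at least 3000 UMIs lay between 7289 and 59422. Summed over the members, a library held between 2255682 UMIs (WT 5, 45 members) and 30827073 UMIs (Dnmt3a KO 14, 468 members). At the edges of the rule, 17 members had under 6000 UMIs, 3 further barcodes with 2000 to 3000 UMIs met the gene criteria, 2347 members rested on exactly 1 UMI of Alx1, and 93 members held exactly 1 UMI of each marker. Outside it, 371 cells carried all 3 markers and a UMI of a crest gene, 111 of them in Dnmt3a KO 14, and 8906 cells carried Twist1 and Prrx1 but neither Alx1 nor a crest gene. Of 1035 globin-rich barcodes, which should lack these genes, 0 met the rule, which allows a share of up to 0.290%. Twist1 was seen in 3.86% of them against 38.4% of all barcodes, Prrx1 in 0.870% against 18.2%, and Alx1 in 0% against 9.68%. Doublet scores marked 406 members.

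The name head mesenchyme was checked against genes outside the rule, as a description, since a marker-selected group must differ from the rest. In WT, genes of head mesenchyme stood higher in members than in the other barcodes: Foxd1 at 72.3 against 19.9 CPM and Prrx2 at 144 against 46.5 CPM. In all, 27 of the 28 genes listed stood higher, as did 10 of 10 markers of lateral and limb mesoderm and 4 of 11 somite markers. Of 15 neural crest markers, 10 stood lower in members, Tfap2a (1.18 against 8.87 CPM) and Tfap2b (0.309 against 3.13 CPM) among them, and 5 stood higher, among them Nr2f1 (56.3 against 15.5 CPM) and Crabp1 (311 against 252 CPM). The ratio was ranked over the 7426 genes outside the rule with at least 10 CPM in WT members. Lhx1, Ndnf, Vegfc, Itga9 and Rspo1 led, and Tcf21 and Hand2 came soon after. These genes did not single out the head, and the lateral mesoderm genes included Osr1 (44.7 against 12.3 CPM) and Foxf1 (93.5 against 38.6 CPM). Members were therefore a mixture, and the label was borne out only in part.

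Posterior Hox genes divided them. Hox genes of paralogue groups 4 to 13 mark trunk and tail, and 1966 of 4698 members (41.8%) held fewer than 100 UMIs of these genes per 1000000 UMIs of the cell. This cut-off was set after the values had been seen, and 1003 members lay between 50 and 200, near the cut. In WT, these Hox-low members held more Foxd1 than the other members (118 against 47.4 CPM), more of the head and pharyngeal gene Tbx1 (27.4 against 3.97 CPM), and more Foxc2 (53.7 against 23.96 CPM). The other members held more Tbx4, a hindlimb and allantois gene (21.2 against 0.355 CPM), Hand1 (107 against 28.2 CPM) and Foxf1 (126 against 36.6 CPM). The cells are hence called Twist1/Prrx1/Alx1 triple-positive cells below, and counts of the Hox-low members are given beside most lists below. The cut rests on Hox level, so it need not pick like cells in each genotype.

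**Figure D1:**
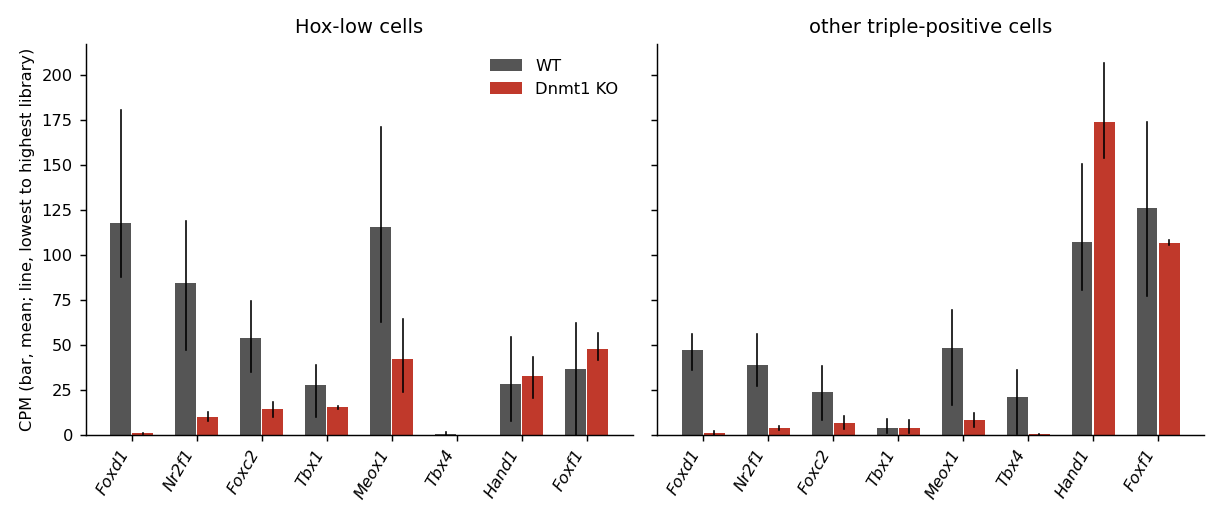
Levels of 8 marker genes in CPM (vertical axis) in Hox-low members (left) and the other members (right), for WT and Dnmt1 KO; bars are means over libraries and lines run from the lowest to the highest library. WT Hox-low members held more Foxd1 than the other WT members (118 against 47.4 CPM) and less Hand1 (28.2 against 107 CPM), and Foxd1 lay near 0 in Dnmt1 KO on both sides.

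The Hox-low share differed with genotype. In Dnmt1 KO it was 67.4%, 75.8% and 73.7% in libraries 1, 2 and 3, above every WT library (lowest 31.1%, median 44.98%, highest 60.3%). Dnmt3a KO libraries 1, 2, 13 and 14 stood at 46.7%, 37.7%, 31.8% and 22.4%, and Dnmt3b KO 1, 2, 11 and 12 at 36.9%, 40.2%, 41.3% and 40.2%. The Dnmt1 KO cells thus held the largest Hox-low part of the 4 genotypes, and the ranges of the other 3 genotypes overlapped.

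The number of triple-positive cells per embryo was compared next. As found, members made up 2.85 to 6.57% of the barcodes in WT (median 5.29%), 6.27%, 2.12% and 6.997% in Dnmt1 KO 1, 2 and 3, 2.05 to 7.22% in Dnmt3a KO and 2.70 to 6.75% in Dnmt3b KO. A cell must yield a UMI of 3 genes to be a member, so the share rises with depth. After every barcode had been thinned to 3000 UMIs, under 19 members were left per library. The shares were then 0.0552 to 0.145% in WT, 0.0224 to 0.0720% in Dnmt1 KO, 0.0635 to 0.184% in Dnmt3a KO and 0.0896 to 0.209% in Dnmt3b KO. At this depth no difference from WT passed an exact two-sided permutation test over the libraries (n = 7 WT).

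In Dnmt1 KO the log2 difference of the thinned shares was -0.76 (n = 3, exact p = 0.0833, adjusted over 3 comparisons 0.25). It was 0.21 in Dnmt3a KO (n = 4, exact p = 0.558, adjusted 0.725) and 0.13 in Dnmt3b KO (n = 3, exact p = 0.725, adjusted 0.725). The smallest p these designs allow is 0.00833 with 3 mutant libraries and 0.00303 with 4. Without WT 2, the Dnmt1 KO difference was -0.91 (exact permutation test, adjusted p = 0.0357). At greater depth the Dnmt1 KO difference was smaller, -0.18 after thinning to 20000 UMIs, which left out the 2332 Dnmt1 KO and 11103 WT barcodes below that depth (exact permutation test, p = 0.558), and -0.05 as sequenced (p = 0.933). A lower share was thus not shown for Dnmt1 KO with all 7 WT libraries. In Dnmt3b KO the difference at 20000 UMIs was 0.46 (exact permutation test, p = 0.0167, adjusted over 3 comparisons 0.05), which did not lie under 0.05.

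**Figure D2:**
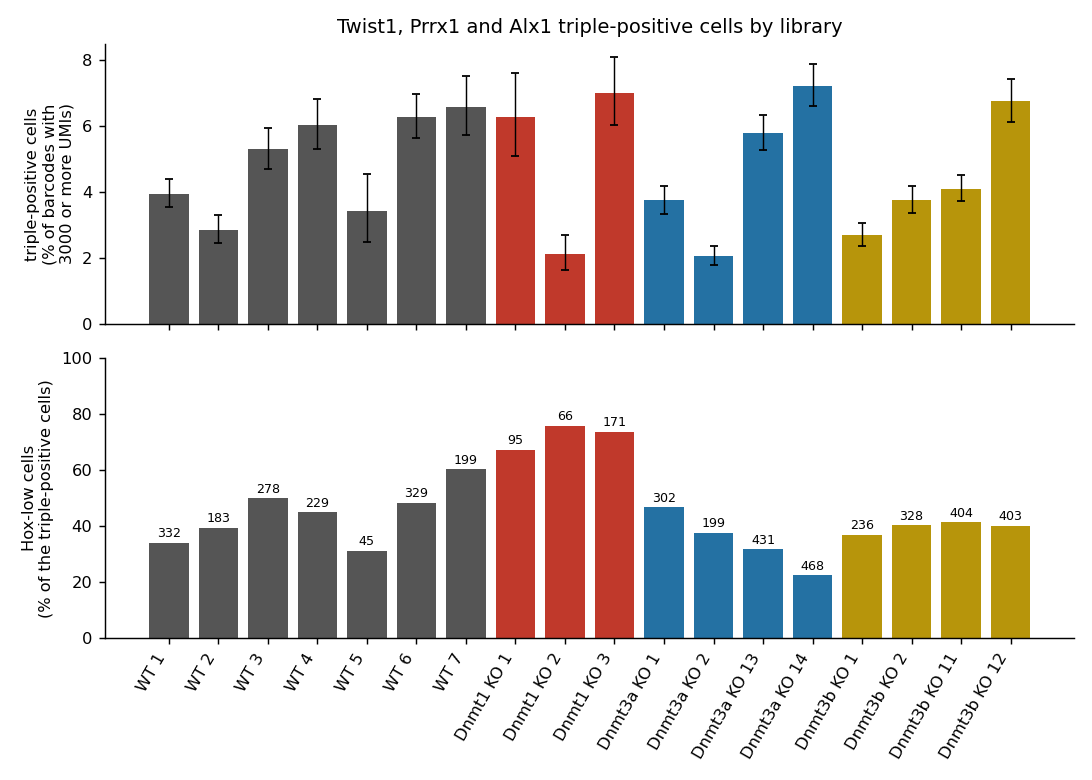
Top, triple-positive cells as a percentage of barcodes with at least 3000 UMIs in each library as sequenced, with 95% Clopper-Pearson intervals that cover counting error only; bottom, the percentage of them that were Hox-low, with the number of members above each bar. The top values overlapped between genotypes, and the Hox-low share was highest in the 3 Dnmt1 KO libraries (67.4 to 75.8%).

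The rule genes themselves stood at the following levels. Twist1 ranged from 271 to 444 CPM in WT (median 337) and was 224, 183 and 173 CPM in Dnmt1 KO 1, 2 and 3, below every WT library. Prrx1 ranged from 51.04 to 106 CPM in WT and was 55.5, 60.4 and 47.2 CPM in Dnmt1 KO. Alx1 ranged from 31.3 to 53.6 CPM in WT and was 40.02, 46.1 and 39.5 CPM in Dnmt1 KO. Prrx1 and Alx1 thus overlapped between Dnmt1 KO and WT, and in Dnmt3a KO and Dnmt3b KO all 3 genes overlapped with WT. A single UMI was enough for membership, so these levels were free to vary above that.

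Gene expression was then compared between each mutant and WT on counts summed over the members of a library. Of 31053 genes, 13835 passed the filter on low counts and were tested. Calls required that the Benjamini-Hochberg adjusted p of the edgeR quasi-likelihood test lay under 1% and that KO and WT differed by at least 1 on the log2 scale. In the cells of Dnmt1 KO embryos 762 genes were called, 5.51% of those tested, of which 517 were higher (3.74%) and 245 lower (1.77%). Far fewer passed in the other mutants, 10 in Dnmt3a KO (9 of them higher) and 120 in Dnmt3b KO (114 of them higher). All 3 comparisons used the same WT libraries. The median log2 fold change over all genes was -0.00, -0.00 and -0.01.

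The disrupted genes were examined first. Dnmt1 (ENSMUSG00000004099, mm10 chr9:20907209-20959888, minus strand) ranged from 107 to 139 CPM in WT (median 123) and was 16.8, 16.7 and 15.9 CPM in Dnmt1 KO 1, 2 and 3, which is -2.91 on the log2 scale (edgeR, SE 0.15, adjusted p 3.4e-10). Dnmt3a (ENSMUSG00000020661, chr12:3806007-3914443, plus strand) was 13.9, 12.8, 9.76 and 12.9 CPM in Dnmt3a KO 1, 2, 13 and 14, a log2 fold change by edgeR of -1.52 ± 0.21 (SE, adjusted p 0.0038), and no library of either group overlapped with WT. Dnmt3b (ENSMUSG00000027478, chr2:153649450-153687730, plus strand) stood at 55.2 ± 12.4 CPM in WT (SD, n = 7) and 55.4 ± 4.81 CPM in Dnmt3b KO (n = 3). The assay reads the 3' end of a transcript, so a deletion elsewhere in the gene need not lower this count, and the Dnmt3b level does not check the genotype.

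In Dnmt1 KO, 11 of the 28 head mesenchyme regulators tested were called lower and 0 higher, with a median log2 fold change of -0.73. Over all genes tested, 1.77% were called lower and 3.74% higher. Foxd1, a forkhead factor of mesenchyme around the head and kidney, fell furthest. Foxd1 (ENSMUSG00000078302, chr13:98354242-98359305, plus strand) ranged from 60.6 to 81.7 CPM in WT (median 70.1) and was 1.15, 0.587 and 0.635 CPM in Dnmt1 KO 1, 2 and 3, a log2 fold change by edgeR of -6.49 ± 0.34 (SE, adjusted p 5.2e-10). The groups were far apart, with 18 UMIs in all Dnmt1 KO members against 7267 in WT. WT 2, the library with Y-linked transcripts, held 80.3 CPM. In the Hox-low members alone, Foxd1 fell by 7.41.

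The other lower regulators included further homeobox and bHLH factors. Meox2, a homeobox gene of muscle and skeletal precursors, ranged from 1.06 to 5.16 CPM in WT and was 0.287, 0 and 0.159 CPM in Dnmt1 KO (log2 fold change -4.26). The transcription cofactor gene Eya2 (-3.24), the bHLH factor Twist2 (-2.22) and the zinc finger gene Tshz2 (-2.09) fell without overlap between the groups. Snai1, Eya1, Foxp2 and Foxc2 were also called lower, at -1.17, -1.04, -1.63 and -1.57. Foxd1, Meox2, Eya2, Twist2 and Tshz2 thus lay below every WT library in each Dnmt1 KO library. For the other called regulators the library values are not given here.

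The most abundant regulators on the list were not called. Id3, an inhibitor of bHLH factors, ranged from 377 to 549 CPM in WT and was 455, 414 and 452 CPM in Dnmt1 KO, a log2 fold change of -0.01 (SE 0.12). Id2, Id1 and Prrx2 had log2 fold changes of -0.11, 0.39 and -0.13. In the Hox-low members, 12 of 27 genes were called lower and 0 higher, with a median of -1.04. The cut rests on Hox genes, which were themselves lower in the Dnmt1 KO sums. The part of the mixture noted above in the fall of the list was not tested. With a Y-linked covariate 6 were called lower, Foxd1 included. Over the alternatives tried, between 5 and 12 list genes were called lower and 0 higher.

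Of 37 matrix genes of mesenchyme, 2 were called lower and 0 higher, with a median of -0.17, beside the 1.77% and 3.74% of all genes. Col26a1 fell from 29.6 ± 6.73 CPM (n = 7) to 11.8, 9.09 and 7.15 CPM in Dnmt1 KO, a log2 fold change of -1.69, and Col2a1, the cartilage collagen, from 25.3 ± 6.35 CPM to 10.8, 9.68 and 9.53 CPM (-1.31). The abundant genes were not called: fibronectin Fn1 (0.05), versican Vcan (-0.09), Itgb1 (0.47) and vimentin Vim (0.73). When barcodes with at least 20000 UMIs were thinned to that number and the others left out, neither Col26a1 nor Col2a1 was called. The list gave 4 lower calls and 1 higher in the Hox-low members, and 4 lower with a Y-linked covariate.

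Of 68 genes of signalling pathways, 9 were called lower and 3 higher in Dnmt1 KO, with a median of -0.17, where 1.77% of all genes were called lower and 3.74% higher. The share called higher was thus near that of all genes. The lower genes included Spry1 (-2.10) and Spry2 (-1.11), inhibitors of receptor tyrosine kinase signalling, the ETS factor gene Etv4 (-1.91) and the phosphatase gene Dusp6 (-1.10). Spry1 was 3.16, 1.76 and 1.91 CPM in Dnmt1 KO 1, 2 and 3 and 6.76 to 12.2 CPM in WT. The Wnt receptor gene Fzd2 ranged from 128 to 164 CPM in WT and was 87.5, 61.02 and 66.3 CPM in Dnmt1 KO (-1.01), without overlap. The Wnt inhibitor gene Dkk2 (-3.52), the BMP antagonist gene Grem1 (-1.94) and Pdgfrb (-1.02) also fell. The 3 higher genes were Sfrp5, a secreted Wnt inhibitor (1.85), the retinoic acid hydroxylase Cyp26a1 (1.46) and Bmp2 (1.06). The retinoid-binding genes Crabp1 (0.32) and Crabp2 (-0.84) did not reach the fold limit. Sfrp5 was no longer called in the Hox-low members (1.70, adjusted p 0.049 by edgeR), where the list gave 2 higher and 8 lower calls of 67.

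**Figure D3:**
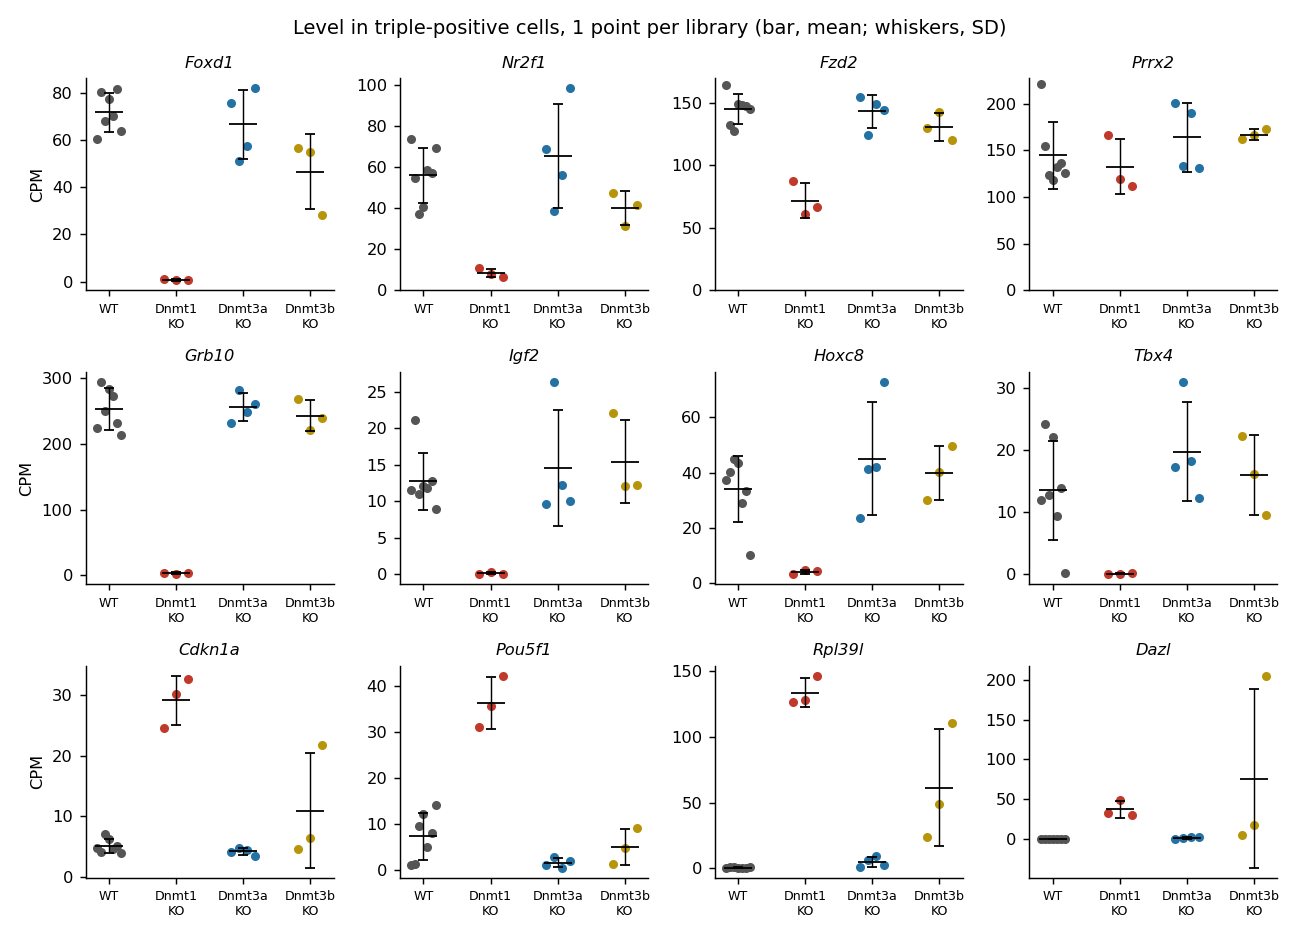
Levels of 12 genes in CPM over member cells (vertical axis), by genotype; points are libraries (Dnmt3b KO 1 and 2 as 1 point), horizontal bars are means and whiskers SD. Foxd1, Grb10 and Igf2 lay near 0 in the 3 Dnmt1 KO libraries, and Dazl was highest in Dnmt3b KO 12 (205 CPM).

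Among the markers fixed for neighbouring cell types, Nr2f1 also fell in Dnmt1 KO. Nr2f1 (ENSMUSG00000069171, chr13:78188973-78199757, minus strand), a nuclear receptor of crest and cranial mesenchyme, ranged from 37.1 to 73.7 CPM in WT (median 57.4) and was 10.6, 7.92 and 6.51 CPM in Dnmt1 KO, a log2 fold change by edgeR of -2.76 ± 0.31 (SE, adjusted p 7.9e-06). It was at -2.98 in the Hox-low members. Of the 14 crest markers tested, Ngfr was also lower (-2.21), and Mef2c (2.02) and Erbb3 (2.07) were higher. Calls over all genes were 1.77% lower and 3.74% higher. Mef2c, a MADS-box factor of heart and endothelium as well as crest, rose from 8.64 to 41.4 CPM in WT to 122, 79.8 and 114 CPM.

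Among the markers of other neighbouring cell types, calls were made in both directions, where 1.77% of all genes were called lower and 3.74% higher. Of 10 somite markers, Tbx18 (-4.32) and Uncx (-2.68) were called lower, and of 10 lateral and limb markers Tbx4 alone, which was 0, 0 and 0.159 CPM in Dnmt1 KO against 0.235 to 24.2 CPM in WT. Of 9 pharyngeal and second heart field markers, Ebf1 was lower (-1.19), and of 10 cardiomyocyte markers Tnni1 was higher (1.43). Of 8 surface ectoderm markers, Epcam (1.93), Cdh1 (2.07), Grhl2 (1.86) and Tfap2c (1.995) were higher, and of 10 endoderm markers Trh (2.90) and Apela (1.06). The Hox-low members gave 2 surface ectoderm and 0 endoderm calls. Tnni1 stood at 0.83 there (adjusted p 0.21 by edgeR), whereas Uncx (-2.32), Trh (2.64), Apela (1.03), Epcam (1.63) and Tfap2c (2.66) were at log2 fold changes of similar size but missed the limit on the adjusted p (0.012 to 0.043 by edgeR). With a Y-linked covariate 2 surface ectoderm genes, 1 somite gene and 0 cardiomyocyte or pharyngeal genes were called, so that Ebf1 was no longer among the calls. The summed level of the surface ectoderm list (10 genes listed) was 900.1 to 1011 CPM in Dnmt1 KO, 879 to 1238 CPM in Dnmt3b KO and 499 to 759 CPM in WT, and the defining gene Cdh1 was 6.45, 14.1 and 16.4 CPM in Dnmt1 KO 1, 2 and 3, against at most 4.64 CPM in WT. Their part in the other results was not tested. No endothelial, erythroid or neuroectoderm marker was called by edgeR. The summed erythroid markers, mostly globins, ranged from 25.8 to 3299 CPM in WT and from 13.5 to 442 CPM in Dnmt1 KO.

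Posterior Hox genes were lower in Dnmt1 KO. Of 33 Hox genes tested, 18 were called lower and 0 higher, with a median of -1.73, where 1.77% of all genes were called lower. Paralogue groups 1 to 3, which reach furthest forward, gave 3 calls of 8 (median -0.87), and groups 4 to 13 gave 15 of 25 (median -2.26). Hoxc8 (ENSMUSG00000001657, chr15:102990607-102994111, plus strand) was 3.16, 4.69 and 4.37 CPM in Dnmt1 KO against 9.97 to 44.9 CPM in WT (-3.09), and Hoxa9 0.861, 0.587 and 0.794 CPM against 2.58 to 23.8 CPM (-4.26). Hoxb9 fell by 2.86. WT 7 was the lowest WT library for Hoxc8, Hoxa9 and Hoxb9 and held the highest Hox-low share of WT, 60.3%. The Hox-low share of each Dnmt1 KO library exceeded that of every WT library. A lower level per cell and a different mix of cells therefore cannot be told apart in these sums. From cell type proportions, the paper also reports a minor developmental delay of Dnmt1 null embryos, in a set that included embryos of another study. The part of such a delay in the Dnmt1 KO results, the genes of the earlier embryo included, was not tested. The count of 18 was 6 without Dnmt1 KO 3, 10 without Dnmt1 KO 2, 11 without Dnmt1 KO 1 and 22 without WT 7, and 13 with a Y-linked covariate. After thinning to 20000 UMIs, 2 of 23 were called. In the Hox-low members, which were chosen on these genes, 0 of 12 Hox genes were called in the edgeR fit.

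Imprinted genes, expressed from 1 parental copy, gave 6 higher and 6 lower calls of 49 tested in Dnmt1 KO, with a median of 0.31. By comparison, 3.74% of all genes were called higher and 1.77% lower. Grb10 (ENSMUSG00000020176, chr11:11930508-12038683, minus strand), an adaptor of growth factor receptors, ranged from 213 to 294 CPM in WT (median 250.5) and was 4.30, 1.76 and 3.97 CPM in Dnmt1 KO 1, 2 and 3, a log2 fold change by edgeR of -6.11 ± 0.20 (SE, adjusted p 3.5e-13). The growth factor gene Igf2 ranged from 8.92 to 21.2 CPM in WT and was 0, 0.293 and 0.0794 CPM in Dnmt1 KO (-7.05). The cell cycle inhibitor Cdkn1c fell from 119 to 614 CPM in WT to 10.6, 9.39 and 6.28 CPM (-5.28). Zim1 (-5.27), Dlk1 (-3.46) and the receptor gene Igf2r (-2.04) fell as well. H19, which lies beside Igf2, rose from 577 to 1314 CPM on average (1.19), and Peg3 (1.38), Peg10 (1.28), Impact (1.27), Zrsr1 (1.35) and Herc3 (1.52) were also called higher. The other 37 genes were not called. In the Hox-low members 7 of 46 were higher and 6 lower, and with a Y-linked covariate 4 were higher and 8 lower.

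Of 27 targets of p53, 8 were called higher in Dnmt1 KO and 0 lower, with a median of 0.54. The share of all genes called higher was 3.74%. The cell cycle inhibitor Cdkn1a ranged from 3.99 to 7.16 CPM in WT and was 24.7, 30.2 and 32.6 CPM in Dnmt1 KO 1, 2 and 3, a log2 fold change by edgeR of 2.48 ± 0.32 (SE, adjusted p 2.6e-05). The pro-apoptotic gene Pmaip1 (3.05), the death receptor gene Eda2r (3.29), Trp53inp1 (2.90), Ccng1 (2.37), Phlda3 (1.92), Sesn2 (1.67) and Btg2 (1.48) rose too. Of 25 tested in the Hox-low members, 9 were called higher. Of 35 genes of DNA replication and mitosis, 0 were called in the edgeR fit, with a median of -0.02 and a summed level of 5760 to 5800 CPM in Dnmt1 KO, within the WT range of 5461 to 6047 CPM. Pooled over the members of a library, mitochondrial genes held 3.24 to 3.76% of UMIs in Dnmt1 KO and 2.32 to 2.73% in WT. Ribosomal protein genes held 27.7 to 29.7% against 23.3 to 27.2%. The part of these differences in the p53 result and the other Dnmt1 KO results was not tested.

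Genes of the earlier embryo were higher in the Dnmt1 KO cells. Of 14 pluripotency genes, 7 were called higher and 0 lower (median 1.59), against 4 of 13 in the Hox-low members and 4 of 14 with a Y-linked covariate. Beside this list and the next, 3.74% of all genes tested were called higher and 1.77% lower. The paper already names Pou5f1, Utf1, Slc7a3, Fgf5 and Pim2 as raised in Dnmt1 null cells, and Xlr3a, Rhox5, Trap1a, Ascl2, Krt8 and Apoe among extraembryonic genes. It also names Hoxc9, Hoxc8, Hoxb9 and Hoxa9 as lower, and reports raised germline genes and misregulated imprinted genes. The counts of all these lists are therefore not independent of these data. Pou5f1, the central pluripotency factor, ranged from 1.07 to 14.2 CPM in WT and was 31.0, 35.5 and 42.2 CPM in Dnmt1 KO 1, 2 and 3 (2.24). Utf1 (3.96) was 0.430, 9.09 and 6.67 CPM and overlapped with WT in library 1. Dnmt3l, the catalytically inactive partner of the Dnmt3 enzymes (3.70), Fgf5 (3.01), the amino acid transporter Slc7a3 (2.38), Epcam and Pim2 (1.71) were the others. Of 19 genes of extraembryonic ectoderm, 8 were higher and 0 lower (11 of all 21 listed with no filter on low counts, and 8 in the Hox-low members), among them the X-linked homeobox genes Rhox9 (7.61) and Rhox6 (4.49), Xlr3a (3.15), Eomes (2.58), Tfap2c and Sct (1.83). Rhox6 stood at 21.5, 59.0 and 18.6 CPM against at most 3.47 CPM in WT. Gm9 was at 0 in all WT libraries and at least 182-fold higher in Dnmt1 KO, against a floor of 3 UMIs over the WT group. Counts of the Rhox and Xlr genes may be shared with close copies of each gene.

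Among 21 genes of the methylation machinery, Dnmt1 and the methyl-CpG binding gene Mbd2 (-1.53) were called lower and Dnmt3l higher. All genes tested gave 1.77% lower and 3.74% higher calls. Mbd2 was 11.5, 7.63 and 16.3 CPM in Dnmt1 KO and 20.3 to 42.4 CPM in WT. Dnmt3b was 75.9, 90.9 and 103 CPM in Dnmt1 KO and 35.7 to 67.2 CPM in WT, a log2 fold change of 0.71 (adjusted p 0.0041 by edgeR) that did not reach the fold limit. Dnmt3a did not differ beyond the spread (0.12).

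Germline genes were called higher in Dnmt1 KO. With no filter on low counts, 42 of all 55 germline genes listed were called higher and 0 lower, where 2.93% of all genes were called higher. The filter kept 42 of the 55, and 38 of these were called. A gene could pass the filter through 1 genotype alone, and 8 of the 42 had at most 3 UMIs over all WT members, so the share of called genes among those kept is no measure of the list. In the Hox-low members 31 were called higher. Many germline genes have promoters rich in CpG, the dinucleotide that is methylated. Of the 55 genes, 46 were matched to a RefSeq promoter of 300 bases (250 before and 50 after the start, GRCm38.p6), which held a median of 16.5 CpG, from 3 to 48, against 7 over all 27025 promoters in the table, and 84.8% of them held at least 10 CpG against 43.9% of all. The letters searched were CG, which read the same on both strands. Promoters are shown, with each CpG in capitals, for Dazl, Sycp1 and Rpl39l, which were called in Dnmt1 KO and Dnmt3b KO, and for Stk31, which was called in Dnmt3a KO as well.

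Dazl, chr17:50293571-50293870, minus strand, 28 CpG: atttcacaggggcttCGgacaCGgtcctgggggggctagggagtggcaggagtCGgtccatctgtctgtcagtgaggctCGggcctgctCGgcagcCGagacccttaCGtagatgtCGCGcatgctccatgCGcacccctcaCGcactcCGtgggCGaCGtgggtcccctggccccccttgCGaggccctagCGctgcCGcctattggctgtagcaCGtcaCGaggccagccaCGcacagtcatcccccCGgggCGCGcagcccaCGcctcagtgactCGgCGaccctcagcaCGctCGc
Sycp1, chr3:102936051-102936350, minus strand, 21 CpG: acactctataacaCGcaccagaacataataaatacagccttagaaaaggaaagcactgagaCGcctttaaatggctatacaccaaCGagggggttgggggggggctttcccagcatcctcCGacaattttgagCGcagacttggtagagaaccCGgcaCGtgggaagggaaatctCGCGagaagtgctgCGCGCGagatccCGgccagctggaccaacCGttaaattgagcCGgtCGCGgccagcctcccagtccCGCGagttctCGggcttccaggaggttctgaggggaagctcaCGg
Rpl39l, chr16:10169978-10170277, plus strand, 17 CpG: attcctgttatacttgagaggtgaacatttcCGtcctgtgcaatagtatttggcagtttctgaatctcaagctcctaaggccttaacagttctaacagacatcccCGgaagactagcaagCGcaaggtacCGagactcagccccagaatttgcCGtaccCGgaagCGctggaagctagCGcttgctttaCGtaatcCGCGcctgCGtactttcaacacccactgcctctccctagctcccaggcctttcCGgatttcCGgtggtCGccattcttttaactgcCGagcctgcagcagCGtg
Stk31, chr6:49395289-49395588, plus strand, 29 CpG: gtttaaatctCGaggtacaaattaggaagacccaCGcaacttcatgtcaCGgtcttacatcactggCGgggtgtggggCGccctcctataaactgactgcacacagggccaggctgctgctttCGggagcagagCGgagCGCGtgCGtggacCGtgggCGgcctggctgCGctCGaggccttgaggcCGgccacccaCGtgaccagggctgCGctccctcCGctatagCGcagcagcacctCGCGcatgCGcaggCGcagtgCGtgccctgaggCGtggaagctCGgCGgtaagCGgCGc

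Rpl39l and Dazl, whose promoters are the third and first shown, were among the most abundant. Rpl39l (ENSMUSG00000039209), a testis copy of a ribosomal protein gene, was at most 0.763 CPM in WT (median 0.267) and 127, 128 and 147 CPM in Dnmt1 KO 1, 2 and 3, a log2 fold change by edgeR of 8.23 ± 0.51 (SE, adjusted p 5.4e-09). Dazl (ENSMUSG00000010592), an RNA-binding regulator of germ cells, was at most 0.188 CPM in WT and 32.1, 49.6 and 29.9 CPM in Dnmt1 KO (8.16). Sycp1, a protein of the synaptonemal complex of meiosis, was at most 0.0891 CPM in WT and 26.5, 21.7 and 21.2 CPM in Dnmt1 KO (9.23). Each of these genes was near 0 in all 7 WT libraries and high in all 3 Dnmt1 KO libraries. Reads of Rpl39l could be shared with its widely transcribed parent gene, which was not tested.

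Other germline genes were at 0 UMIs in every WT library. Against a floor of 3 UMIs over the WT group, Tex13b was at least 1068-fold higher in Dnmt1 KO, Rhox13 at least 901-fold, 1700018B24Rik at least 501-fold and Gtsf1 at least 322-fold. Tex13b stood at 31.3, 28.8 and 33.1 CPM in Dnmt1 KO 1, 2 and 3. Outside the lists, the largest separated rises were those of Trim5, at least 835-fold higher, Rpl10l, at least 359-fold, and Usp9y, with 372 UMIs in Dnmt1 KO and 0 in WT. No bound is given for Usp9y, which is Y-linked, since most WT libraries held almost no Y-linked transcripts. Usp9y was also 0 in WT 2, which held other Y-linked transcripts, and had 9 UMIs over the Dnmt3a KO members. Among falls outside the lists, Lum, a matrix proteoglycan gene, was 0.287, 0 and 0.238 CPM against 5.77 to 18.6 CPM in WT (-5.52).

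**Figure D4:**
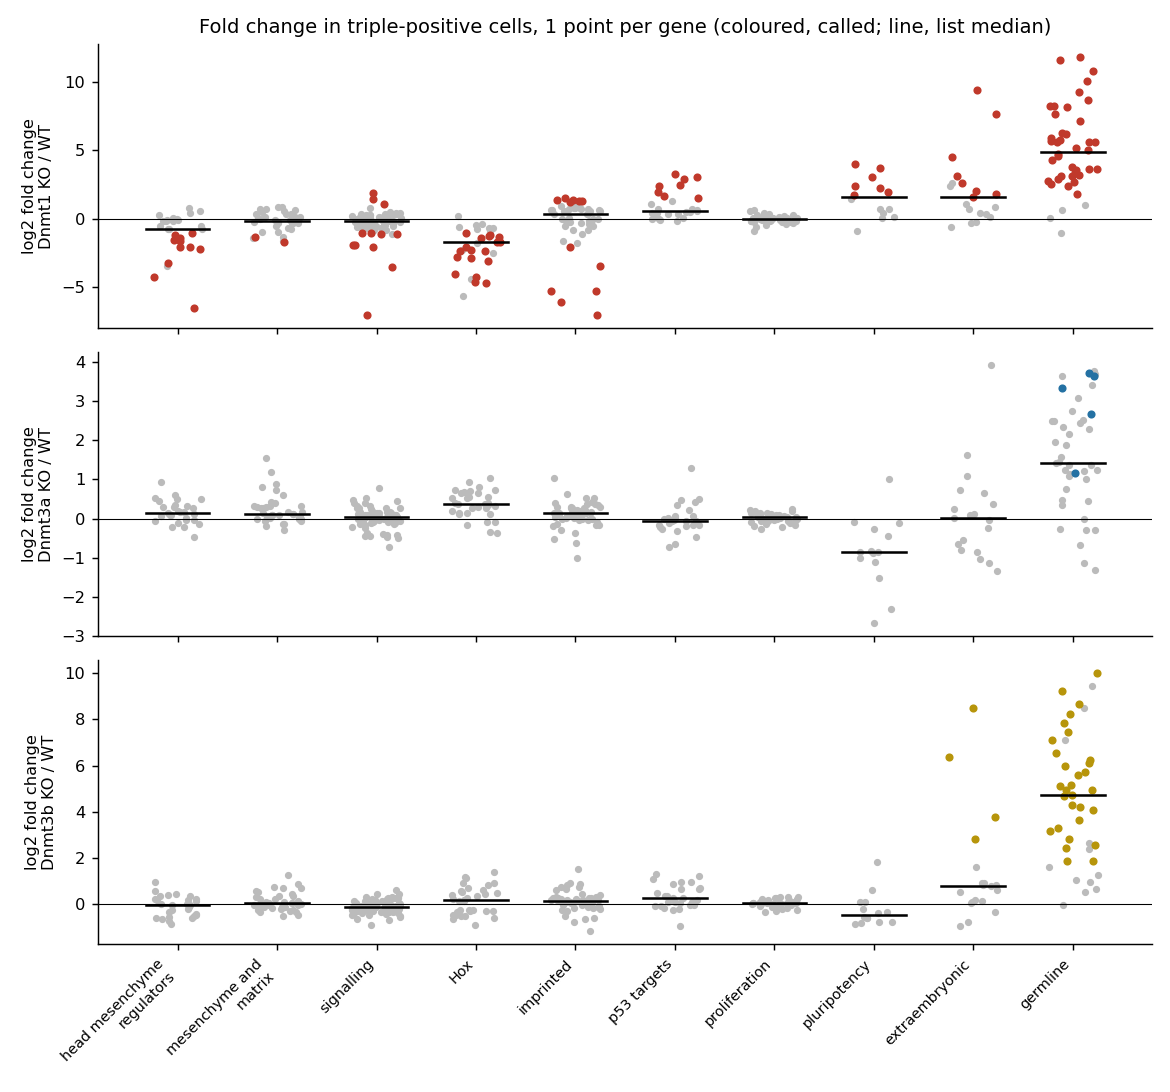
Log2 fold changes (vertical axis) of the tested genes of 10 lists, 1 panel per mutant against WT; each point is a gene, coloured where called and grey where not, and horizontal lines are list medians. Genes that did not pass the filter on low counts are not shown. Coloured points of the germline list numbered 38 for Dnmt1, 5 for Dnmt3a and 30 for Dnmt3b, all above 0, and those of the head mesenchyme list 11 for Dnmt1, all below 0.

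In Dnmt3a KO few genes were called in the triple-positive cells. The 10 genes called were 0.0723% of those tested, 9 higher (0.0651%) and 1 lower (0.00723%), and 1189 genes had an unadjusted p under 0.05. The lower gene was Dnmt3a itself. Of the 55 germline genes, 5 were called higher and 0 lower (9 with no filter on low counts, where 0.0828% of all genes were called higher), and the remaining lists held no higher call. The 42 germline genes tested had a median log2 fold change of 1.43, with 35 positive and 6 negative. No head mesenchyme regulator, matrix, signalling, Hox, imprinted, pluripotency or p53 target gene was called by edgeR, and the medians of these lists lay between -0.86 (pluripotency) and 0.38 (Hox).

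The called germline genes were low in absolute terms. Stk31, a kinase-like gene of the testis whose promoter is the fourth shown, was at most 0.491 CPM in WT (median 0.144) and 2.60, 2.51, 2.59 and 3.20 CPM in Dnmt3a KO 1, 2, 13 and 14, a log2 fold change by edgeR of 3.65 ± 0.48 (SE, adjusted p 0.0034). Slc25a31, a testis carrier of ADP and ATP, was at most 1.23 CPM in WT and 2.50, 5.22, 6.44 and 5.61 CPM in Dnmt3a KO (3.73). Syce1 (3.35), Hsf2bp (2.68) and Tex15 (1.18), which act in meiosis or in silencing of transposons in male germ cells, were the others. No library of Dnmt3a KO overlapped with WT for these 5 genes. Tex15 stood at 9.79, 13.3, 8.92 and 12.6 CPM in Dnmt3a KO and at 2.94 to 6.14 CPM in WT. Beside the germline list, the lincRNA gene 1700048O20Rik (ENSMUSG00000043773, chr9:121937223-121947016, plus strand) rose from 6.63 ± 1.72 CPM (n = 7) to 10.8, 15.9, 14.9 and 15.5 CPM (1.08). Dazl (3.77, adjusted p 0.43), Rpl39l (3.41, adjusted p 0.016) and Hormad1 (3.69, adjusted p 0.019) lay above every WT library but were not called by edgeR. With a Y-linked covariate, which rests mostly on WT 2 and Dnmt3b KO 12, 7 germline genes were called, Dazl and Rpl39l among them.

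These calls were close to the threshold. The edgeR count was 0 without WT 1, 3 or 6 or without Dnmt3a KO 2, 13 or 14. It rose to 28 without Dnmt3b KO 12, a library of another genotype in the same fit, and the cause was not tested. The germline count was 12 without Dnmt3b KO 11 and 12. In the Hox-low members 0 genes were called by edgeR, with 951 at an unadjusted p under 0.05, but the 7 genes named here kept their direction, with log2 fold changes such as 3.53 for Slc25a31, 3.33 for Stk31, 2.48 for Hsf2bp and 1.26 for 1700048O20Rik.

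In Dnmt3b KO, 120 genes were called, 0.867% of those tested, of which 114 were higher (0.824%) and 6 lower (0.0434%). With no filter on low counts, 32 of all 55 germline genes were called higher and 0 lower, where 0.632% of all genes were called higher. Of the 42 that passed the filter, in part through their level in a mutant, 30 were called, and 20 were called in the Hox-low members. Of 19 extraembryonic ectoderm genes, Gm9, Rhox9 (6.35), Rhox6 (3.79) and Xlr3a (2.83) were higher, and Gm9 was at least 105-fold higher against the floor of 3 UMIs in WT. The Hox-low members gave 3 calls. Without libraries 11 and 12 only 1 Dnmt3b KO library was left, so whether these genes would still be called could not be tested. No gene of the head mesenchyme, matrix, signalling, Hox, imprinted, p53, proliferation or pluripotency lists was called by edgeR, and their medians lay between -0.50 (pluripotency) and 0.24 (p53). With a Y-linked covariate 4 p53 targets (Ccng1, Cdkn1a, Phlda3 and Trp53inp1) and 1 imprinted gene (Ddc) were called higher. That covariate rests mostly on WT 2 and Dnmt3b KO 12. Foxd1 was 56.6, 54.8 and 28.3 CPM in Dnmt3b KO 1 and 2, 11 and 12 and was not called (-0.63, adjusted p 0.10 by edgeR), although each value lay below the WT range of 60.6 to 81.7 CPM. In library 12 alone the p53 target Cdkn1a stood above WT, at 21.9 CPM against 4.56 and 6.46 CPM in the other Dnmt3b KO libraries and at most 7.16 CPM in WT.

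The germline genes differed widely among the Dnmt3b KO libraries. Dazl was 4.99 CPM in libraries 1 and 2, 17.2 CPM in library 11 and 205 CPM in library 12, against at most 0.188 CPM in WT, a log2 fold change by edgeR of 9.21 ± 0.97 (SE, adjusted p 1e-05). Rpl39l was 23.8, 49.2 and 111 CPM in the same order (7.11) and Sycp1 5.98, 13.3 and 27.4 CPM (8.66). The order was the same for all 3 genes, with library 12 highest, as it was for Tuba3b (1.17, 6.33 and 50.1 CPM), Sohlh2 (0.678, 1.998 and 60.7 CPM) and Hormad1 (5.92, 11.1 and 19.4 CPM). Dnmt3a transcripts ran in the opposite order, at 34.4, 18.05 and 10.5 CPM, and their part in this order was not tested. The value of library 12 lay within the range of the Dnmt3a KO libraries. Without library 12, 24 germline genes were called higher and 65 genes in all, on the assumption that the libraries left vary like those of the other genotypes. Without libraries 11 and 12 only 1 Dnmt3b KO library was left, so no calls are given. Stk31, which was called in Dnmt3a KO, stood at 2.90, 3.40 and 10.7 CPM (4.69).

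The lower genes in Dnmt3b KO were few and included 2 neighbours of the disrupted gene. Gm14226 (ENSMUSG00000084897, chr2:155018266-155027104, plus strand) was 0.0616, 0.133 and 0.302 CPM in Dnmt3b KO against 20.6 to 35.1 CPM in WT, a log2 fold change by edgeR of -7.26 ± 0.35 (SE, adjusted p 6.3e-10). Ahcy (ENSMUSG00000027597, chr2:155059310-155074497, minus strand), which encodes the enzyme that clears the product of methylation reactions, was 9.37, 8.59 and 8.09 CPM against 21.5 to 27.5 CPM in WT (-1.48). Both groups were fully separated for both genes. They lie 1.33 and 1.37 Mb from Dnmt3b. Of 122 genes tested within 5 Mb of Dnmt3b, 2 were called higher and 2 lower. Over all genes, 0.824% were called higher and 0.0434% lower. Rpgrip1, a ciliary gene on chromosome 14, was 33.2, 39.5 and 21.7 CPM against 49.1 to 100.1 CPM in WT (-1.14).

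The levels were finally resolved to single cells, as the share of members with a UMI of a gene after each cell had been thinned to 20000 UMIs. Members below that depth were left out, so that the shares cover 1533 of 1595 members in WT, 329 of 332 in Dnmt1 KO, 1287 of 1400 in Dnmt3a KO and 1122 of 1371 in Dnmt3b KO. Foxd1 was seen in 30.2 to 48.6% of members in WT, 31.9 to 43.1% in Dnmt3a KO and 21.4 to 35.8% in Dnmt3b KO, but in 1.34 to 2.26% in Dnmt1 KO. Globin-rich barcodes thinned to the same depth, pooled over WT, Dnmt3a KO and Dnmt3b KO, held Foxd1 in 0.864%. No Dnmt1 KO barcode was among them. At the depth as sequenced, 17 of 332 Dnmt1 KO members held Foxd1 against 857 of 1595 in WT. Few Dnmt1 KO members thus held a Foxd1 UMI in any of the 3 libraries. Grb10 was seen in 96.7 to 98.7% of WT members and in 3.14 to 5.47% of Dnmt1 KO members. The pooled globin-rich barcodes, with none from Dnmt1 KO, transcribe it too and held it in 74.3%.

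The shares of cells with a germline UMI also differed between genotypes. Rpl39l was seen in 79.6 to 82.3% of Dnmt1 KO members, 22.4 to 79.6% in Dnmt3b KO, 1.87 to 11.2% in Dnmt3a KO and 0 to 1.22% in WT. Dazl was seen in 28.8 to 36.9% of Dnmt1 KO members and, in Dnmt3b KO, in 2.47% at the lowest and 69.4% at the highest, in library 12. In globin-rich barcodes of WT, thinned likewise, Rpl39l was seen in 1.98% and Dazl in 0%, and the lowest Dnmt3a KO library (1.87%) lay below the first of these values while the other 3 (4.99, 8.91 and 11.2%) lay above it. Globin-rich barcodes of the mutants carry the mutation too and are no background for these genes. They held Rpl39l in 8.47% in Dnmt3a KO and 57.9% in Dnmt3b KO, and Dazl in 9.64% and 53.6%. Of the 195 globin-rich barcodes of Dnmt3b KO before the depth limit, 103 came from library 12, where they were deepest.

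Counted over all 55 germline genes listed, a WT member held a UMI of 0.38 to 0.745 of them on average, a Dnmt1 KO member 7.67 to 8.23 and a Dnmt3a KO member 0.917 to 1.67. In Dnmt3b KO the means were 2.95 and 3.04 in libraries 1 and 2, 4.26 in library 11 and 9.64 in library 12, the last above every Dnmt1 KO library. Between 48.3 and 67.95% of WT members held none of these genes, against 19.4 to 41.3% in Dnmt3a KO, up to 4.87% in Dnmt3b KO and up to 0.0135% in Dnmt1 KO. By these means, every Dnmt3a KO library lay below every library of the other mutants. Of the Dnmt3b KO libraries, only library 12 lay above the Dnmt1 KO range, and the others lay below it.

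**Figure D5:**
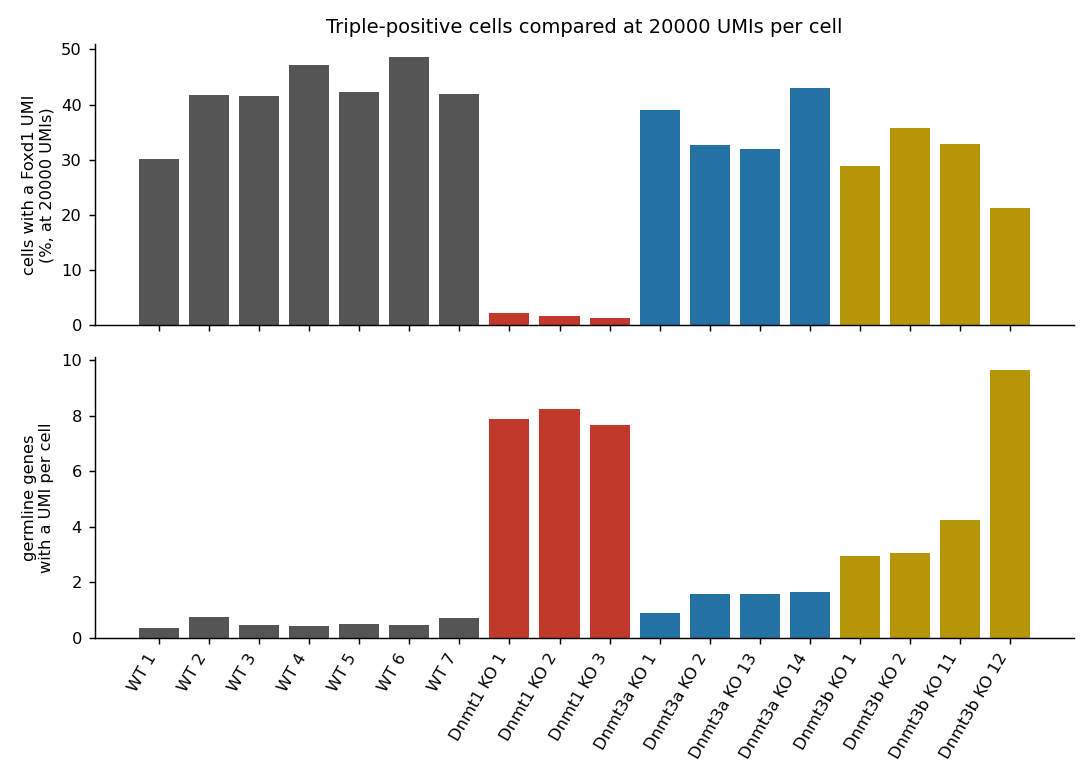
Each library's members at 20000 UMIs per cell: top, the percentage with a Foxd1 UMI; bottom, the mean number of the 55 listed germline genes with a UMI per cell. Foxd1 was seen in 1.34 to 2.26% of Dnmt1 KO members against 30.2 to 48.6% in WT, and the germline count was highest in Dnmt3b KO 12 (9.64).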

How the data were processed

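The deposited files hold UMI counts per gene and barcode, which the authors made with Cell Ranger (per the submitters' processing notes, version 3.1.0 for 17 libraries and 5.0.0 for 1) on mouse genes of mm10. In 4 libraries a human reference had been added, and its rows were left out. Members and gene lists were chosen with earlier results of these data known.

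Barcodes with at least 3000 mouse UMIs were screened by the rule, and the raw counts of the members were summed per library, so that the library and not the cell was the replicate. Nothing was filtered by doublet score (scanpy 1.11.5) in the sums. Genes were tested in one edgeR 4.0.16 quasi-likelihood fit (R 4.3.3) over all 4 genotypes, with TMM factors and Benjamini-Hochberg adjustment over all 13835 genes. The procedure was tested on simulated data. Shares of cells were compared after thinning to 3000 UMIs, by an exact two-sided permutation test (scipy 1.17.1). DESeq2 1.42.0 was an alternative. CPM are per 1000000 UMIs of the summed members, on TMM-scaled totals in the comparisons between genotypes and on plain totals in the marker check, and gene positions are from GENCODE vM21.

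Named genes were the 6 rule genes, the 3 Dnmt genes, per list up to 6 called genes with the largest fold change in each comparison, the 4 highest genes of the mesenchyme, matrix and signalling lists, and up to 6 higher and 6 lower genes per comparison without overlap and with at least 10 CPM. Other called list members were named after their values were seen. P-values measure the spread between single embryos. Intervals and floors cover counting error only. Some genes are not reported here.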

Additional observations from a re-analysis of the deposited data

Results flagged for a closer look

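Of 58 groups of libraries examined, 5 held a library far from the rest of its group, and chance alone marks about 1 in 20 groups. All 5 were WT. WT 1 held 221 CPM of Prrx2 and 215 CPM of Crabp2, WT 2 held 21.2 CPM of Igf2, WT 5 held 33.4 CPM of Apela, and WT 7 held 34.6 CPM of Sfrp5.

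The human genes of the 4 libraries counted on a combined reference, which no comparison used, carried UMIs in the member cells: 1151 in WT 1, 1423 in Dnmt3b KO 11, and 1150.0 and 2010.0 in replicates 1 and 13 of Dnmt3a KO.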

How the results depend on the processing

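In 33 alternatives, no gene that the naming rule gave and that was called (80 for Dnmt1, 7 for Dnmt3a and 21 for Dnmt3b) changed direction. Dnmt1 KO calls were kept in 2435 of 2588 values, those of Dnmt3a KO in 137 of 228 and those of Dnmt3b KO in 631 of 688. The 762 genes called in Dnmt1 KO became 497 in the Hox-low members, 490 with at least 2 UMIs of each marker and 216 after thinning to 20000 UMIs, and ranged from 487 (without Dnmt1 KO 3) to 854 when 1 library was left out. The 10 genes of Dnmt3a KO became 31 with DESeq2, 22 with no filter on low counts, 17 with a Y-linked covariate, 4 with a reference covariate, 5 with at least 2 UMIs, 1 after thinning to 20000 UMIs, 28 without Dnmt3b KO 11 and 12, and 0 in the Hox-low members in the edgeR fit (951 genes at an unadjusted p under 0.05), and ranged from 0 (without WT 1, 3 or 6 or Dnmt3a KO 2, 13 or 14) to 28 (without Dnmt3b KO 12) when 1 library was left out. The count was also 21 without WT 2, 18 without Dnmt3b KO 1 and 2, 6 without Dnmt3b KO 11, 4 without Dnmt1 KO 3, 3 without WT 4 and 2 without WT 5. The 120 genes of Dnmt3b KO became 59 in the Hox-low members, 70 with at least 2 UMIs, 46 after thinning to 20000 UMIs and 59 with only Dnmt3b KO and WT in the fit. With 1 library left out the count ranged from 65 (without library 12) to 152 (without 1 and 2), with 134 without WT 2. The cause was not tested. Of named genes called and tested in the Hox-low members, 8 of 68 were no longer called in Dnmt1 KO, 7 of 7 in Dnmt3a KO and 4 of 21 in Dnmt3b KO. Their log2 fold changes kept their direction, and in Dnmt3b KO Gtsf1 stood at 6.68, Tuba3b at 9.67 and Xlr3a at 2.52.

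The deviations of same-numbered libraries from their group means correlated at -0.23 to 0.21. Pairs of unlike number were not set beside them, so this check cannot settle whether the numbers pair libraries. With a replicate block, edgeR called 534 genes in Dnmt1 KO and 0 in Dnmt3a KO (361 at an unadjusted p under 0.05). WT 4 to 7, Dnmt3a KO 13 and 14 and Dnmt3b KO 11 and 12 share their number with no other library. They therefore added nothing to the differences in that fit. For Dnmt3b KO only the summed library of 1 and 2 was left, so no calls are given.

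At own depth the log2 difference of the member share was -0.05 in Dnmt1 KO, against -0.76 thinned, and -0.15 in Dnmt3a KO and -0.0797 in Dnmt3b KO, opposite in sign to the thinned values. After thinning to 20000 UMIs it was -0.18, 0.34 and 0.46. With 1 library left out it ranged from -1.01 to -0.32 in Dnmt1 KO (-0.91 without WT 2), from 0.05 to 0.54 in Dnmt3a KO, and from -0.0526 (without Dnmt3b KO 1 and 2) to 0.36 in Dnmt3b KO, with -0.0272 without WT 2. The cause was not tested. The gene fit on cells thinned to 3000 UMIs was not run, because most libraries kept under 10 members. Thinning to 20000 UMIs and the Hox-low members were chosen after seeing the data.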
